A study of Rattus norvegicus with 10 samples.

Results

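Genes of the voltage-gated and potassium ion channel families were followed in rat gastrocnemius muscle under mild calorie restriction (CR). They were chosen by name, as every gene whose symbol on the array platform starts with Kcn, Scn, Cacn or Clcn. Of 122 such genes with a probe set that reports a single gene, 34 had a mean signal above the level used for testing, against 9170 genes tested in all. The families cover potassium, sodium, calcium and chloride channels together with their accessory subunits. Scnm1 enters by its symbol alone, since it encodes a zinc finger protein of RNA splicing and not a channel.

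Male Wistar rats bought at 5 weeks of age were fed the AIN-93G diet in control amounts or with 5, 10, 20 or 30% less for 1 month or for 1 week. All groups were fasted overnight before the muscle was taken. RNA of the 5 rats of each group was combined and hybridized to 1 array, which gave 10 arrays, 8 restricted and 2 control, with no replicate of any group. The p-values below therefore measure departures of single pooled arrays from a fitted line, not the spread between rats. Rats of the 1 month groups were also older than those of the 1 week groups, and the deposited trimmed mean signal was 86.4 on every 1 month array and 99.6 on every 1 week array, so duration, age and array processing cannot be told apart. For the 1 week control and the 1 week 5% CR arrays, a line of their descriptions states feeding opposite to that in their titles, and values with both arrays exchanged or left out are given below where they matter. In whole muscle, fewer cells of a type and less RNA per cell cannot be told apart.

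As background, the voltage-gated sodium channel Scn4a carries the action potential of the muscle fibre and the calcium channel Cacna1s in the transverse tubule senses it and triggers the ryanodine receptor. The chloride channel Clcn1 and the inward rectifier potassium channels hold the resting potential, and potassium channels of the Kcna and Kcnc families end each spike. The inward rectifier Kcnj11 forms the pore of the ATP-sensitive potassium channel, which opens when cellular ATP falls and so ties excitability to energy state.

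Most channel genes gave signals too low to be tested. The mean deposited signal of the 88 genes left out was between 0.70 and 17.5, and they were 72.1% of the family against 35.5% of all 14217 genes with such a probe set. Kcne2 at 17.5 and Kcnmb4 at 17.0 lay just outside the limit of 17.8, while Kcnj3 at 18.1 and Cacna1a at 18.7 lay just inside it. Above the limit were 6 of 31 voltage-gated potassium subunits, 5 of 15 inward rectifiers, 2 of 7 calcium- or sodium-activated potassium channel genes and 2 of 11 potassium channel accessory subunits. None of the 11 potassium channels with a paired pore domain (Kcnk) and none of the 3 epithelial sodium channel genes (Scnn1) passed. Of the sodium channel genes 5 of 12 passed, with 3 of 10 calcium channel pores, 5 of 14 calcium channel accessory subunits and 5 of 7 chloride channels, plus Scnm1. Signals below are rescaled so that the trimmed mean of each array is 100. Over the 10 arrays the highest signal was 1.18 to 2.32 times the lowest (median 1.40) for the 15 genes with a mean of 100 or more, and 1.48 to 4.01 times (median 1.93) for the 19 dimmer genes. Kcna7, also known from muscle, was not analysed here.

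Across the levels of restriction a single channel gene, Kcnj11, passed the test for a change with the level. It passed in only 3 of 10 fits that each left out 1 array. The rise or fall of log2 signal per unit of restriction, its slope, passed an adjusted p of 0.05 for 1 of 34 genes (2.94%, higher), against 2% of the 15521 probe sets tested, and no channel gene fell. At an unadjusted p under 0.05 the count was 6 of 34 (17.6%), against 14.3% of all. The median slope of the 34 genes was -0.005 log2 per 10 percentage points, with 16 positive and 18 negative, against -0.003 over all probe sets tested.

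**Figure D1:**
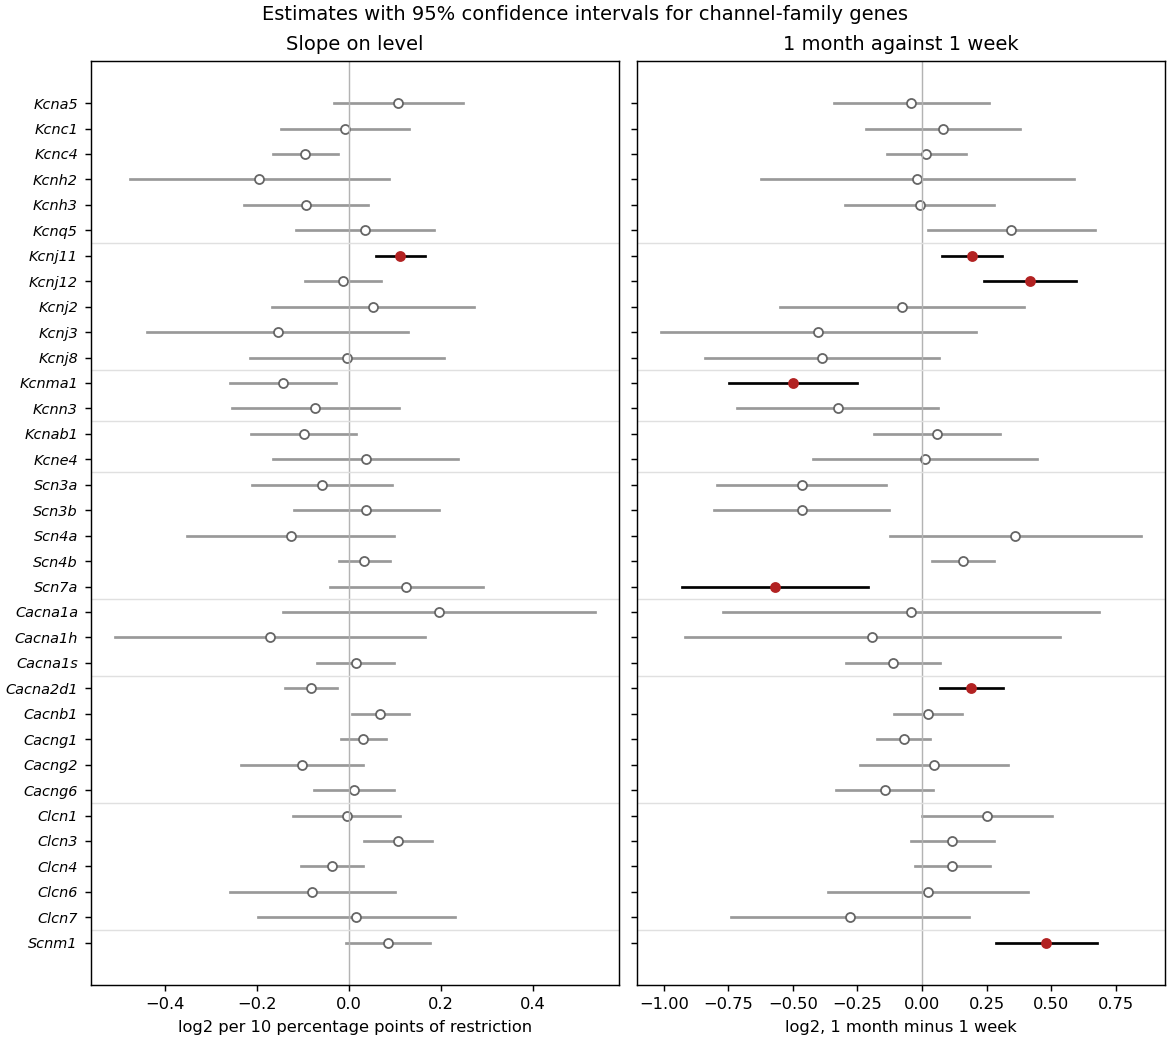
Estimates (points) with 95% confidence intervals (bars) for 34 channel-family genes grouped by role, on the left the slope of log2 signal per 10 percentage points of restriction and on the right the log2 difference of 1 month minus 1 week, both from limma over 10 arrays. Filled points passed an adjusted p of 0.05: Kcnj11 alone for the slope, and Kcnj11, Kcnj12, Cacna2d1, Scnm1 (higher), Kcnma1 and Scn7a (lower) for duration, where Kcnj11 and Cacna2d1 differ by -0.01 on the signals as deposited.

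Kcnj11 encodes Kir6.2. Its signal at 1 month was 964 in the control and 1062, 1167, 1150.4 and 1245 at 5, 10, 20 and 30% CR. At 1 week it was 859.8 in the control and 899, 975, 1074 and 1079.9 at 5, 10, 20 and 30% CR. Every restricted array was above the control of its duration, and at 1 week the 5 arrays stood in the order of their levels. Kcnj11 and Clcn3 were the 2 channel genes of 34 with such an order at 1 week (5.88%, against 3.71% of all probe sets), and none had it at 1 month (3.12% of all). The 30% CR signal of Kcnj11 was 1.29-fold the control at 1 month and 1.26-fold at 1 week. The slope was 0.11 ± 0.02 log2 per 10 percentage points (SE, adjusted p = 0.0332).

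A pair of dimmer probe sets of Kcnj11 also had positive slopes that did not pass, 0.08 (adjusted p = 0.169) and 0.06 (adjusted p = 0.501). Signals of the first of them in order of rising restriction, with the control first, were 711, 756, 752, 697 and 827 at 1 month and 529.8, 544, 560.0, 649 and 667 at 1 week. The second had 429, 499, 465, 480 and 451 at 1 month and 307, 390, 395, 418 and 413 at 1 week. In the 8 restricted arrays alone the slopes of these dimmer probe sets were 0.08 (adjusted p = 0.43) and -0.003 (adjusted p = 0.989). The slope of the brightest Kcnj11 probe set did not pass there either (0.09, adjusted p = 0.277). In these 8 arrays 0 of 34 channel genes passed limma's test, against 0.245% of all probe sets. At an unadjusted p under 0.05 were 2 of 34 there (5.88%), against 10.4% of all. The slope of the brightest probe set passed without the 1 week 10%, the 1 month 5% or the 1 month 10% CR array (adjusted p = 0.046, 0.0366 and 0.0324). It did not pass without any of the other 7 arrays, with slopes of 0.10 to 0.12 and adjusted p up to 0.109 in these 10 fits. With the 1 week control and 5% CR arrays exchanged the slope was 0.11 (adjusted p = 0.0631), and without both arrays it was 0.10 (adjusted p = 0.308).

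**Figure D2:**
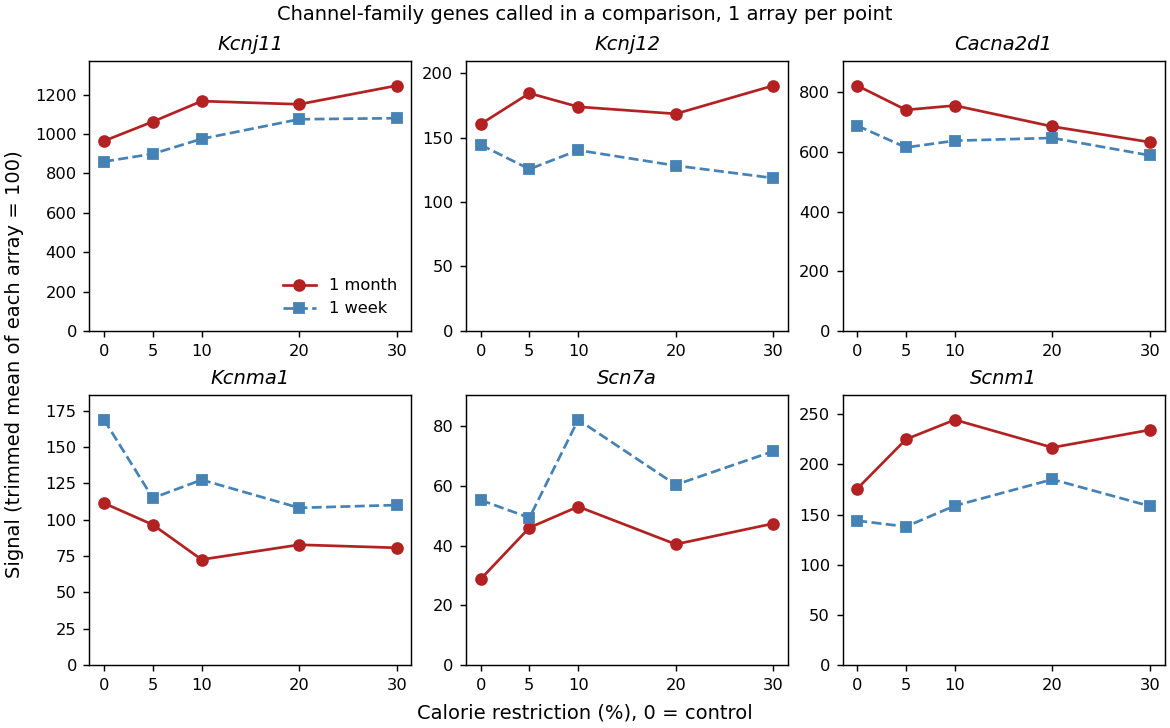
Signal (trimmed mean of each array set to 100) against the level of restriction for the 6 genes that passed in a comparison, 1 pooled array per point, 1 month arrays as circles and 1 week arrays as squares. Kcnj11 is lowest in the control and highest at 30% CR in both durations, and at every level the 1 month array is above the 1 week array for Kcnj11, Kcnj12, Cacna2d1 and Scnm1 and below it for Kcnma1 and Scn7a, although Kcnj11 and Cacna2d1 differ by -0.01 on the signals as deposited.

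Kcnj11 was also higher at 1 month than at 1 week, by 0.19 ± 0.05 log2 (SE, adjusted p = 0.033). In that comparison 4 of the 34 genes were higher, Scnm1 among them, against 4.45% of all probe sets, and 2 were lower, against 5.55%. In either direction 17.6% of the 34 passed, against 10% of all probe sets. On the signals as deposited 1 was higher, Scnm1, against 1.13% of all probe sets, and 10 were lower, against 32.8%. At an unadjusted p under 0.05 were 10 of 34 (29.4%), against 24.4% of all. The dimmer Kcnj11 probe sets passed too, at 0.35 (adjusted p = 0.003) and 0.28 (adjusted p = 0.033). As deposited, where the median of all probe sets was -0.21, Kcnj11 differed by -0.01. Of 10 fits without an array it passed in 3, those without the 1 week 10 or 20% CR or the 1 month control array, with adjusted p from 0.0219 to 0.0906. It also passed with the 1 week control and 5% CR arrays exchanged (adjusted p = 0.0407) but not without both (0.16, adjusted p = 0.216). Abcc8 and Abcc9 encode the sulfonylurea receptors that can join Kcnj11 in the channel. Abcc8 is the next gene to Kcnj11 in the GRCr8 assembly. Signals of Abcc8 in order of rising restriction, with the control first, were 139, 109, 119, 101 and 104 at 1 month and 98.2, 107, 76.0, 105 and 92.8 at 1 week. The slope of Abcc8 was -0.06 (adjusted p = 0.628), with 0.26 between the durations (adjusted p = 0.177). Abcc9 had signals of 1002, 1223, 1343, 1163 and 1128 at 1 month from control to 30% CR. At 1 week they were 1310, 1150, 1116, 1355 and 1231. The slope of Abcc9 was 0.02 (adjusted p = 0.893), with -0.08 between the durations (adjusted p = 0.61).

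The other inward rectifiers differed among themselves. Kcnj12, which encodes Kir2.2 of the classical inward rectifier current, had a signal of 160.4, 184, 174, 168 and 190.3 at 1 month from control to 30% CR, against 144, 126, 140.2, 128 and 119 at 1 week. All 1 month arrays were above all 1 week arrays. Kcnj12 and Scn3b, Scn3b being lower at 1 month, were the 2 of 34 channel genes without overlap between the durations (5.88%, against 7.82% of all probe sets). The difference was 0.42 ± 0.08 log2, a 1.34-fold higher signal at 1 month (SE, adjusted p = 0.00542). It passed in all 10 fits without an array, and as deposited it was 0.21 (adjusted p = 0.0611). The slope of Kcnj12 on the level was -0.01 ± 0.04 (adjusted p = 0.917).

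Kcnj2 encodes Kir2.1, the partner of Kir2.2 in muscle. Signals of Kcnj2 in order of rising restriction, with the control first, were 17.1, 29.9, 26.9, 32.9 and 21.0 at 1 month and 21.0, 35.0, 24.4, 23.2 and 29.6 at 1 week. Every restricted array was above the control of its duration, with a mean difference of 0.53 ± 0.24 log2 (SE, adjusted p = 0.328). Kcnj8, which encodes the Kir6.1 subunit known from vascular smooth muscle, ranged from 34.1 to 60.1 at 1 month and 47.4 to 93.4 at 1 week, with its highest signal on the 1 week 5% CR array. Kcnj3, a subunit of G protein-gated channels, ranged from 11.9 to 30.3 at 1 month and 16.9 to 35.1 at 1 week. Neither passed in any comparison on the rescaled signals, and as deposited Kcnj8 passed as lower at 1 month (adjusted p = 0.0437).

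Kcnma1 encodes the pore of the large-conductance calcium-activated potassium channel, which is expressed in smooth muscle as well as in muscle fibres. Its signal was 111, 96.5, 72.6, 82.8 and 80.7 at 1 month from control to 30% CR, against 169, 115, 127, 108 and 110.1 at 1 week. Within each duration the control was the highest array, and at every level the 1 month array was below the 1 week array, although the 1 month control lay within the range of the 1 week restricted arrays. Kcnma1 fell by 0.50 ± 0.12 log2 at 1 month (SE, adjusted p = 0.0133), and this passed in all 10 fits without an array. It did not pass without both contradictory arrays (-0.47, adjusted p = 0.0661) or when all Kcnma1 probe sets were averaged (-0.17, adjusted p = 0.453).

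In the restricted arrays against the controls Kcnma1 had the smallest p of the family, at -0.49 ± 0.12 log2 (SE, adjusted p = 0.0516). No channel gene passed limma's test there, against 2% of all probe sets. At an unadjusted p under 0.05 were 6 of 34 (17.6%), against 14.2% of all. The Kcnma1 difference passed under quantile normalization (adjusted p = 0.0493) and with the arrays centred on their medians (adjusted p = 0.0467), and it was -0.15 (adjusted p = 0.806) with the 1 week control and 5% CR arrays exchanged. A dimmer Kcnma1 probe set disagreed. Signals of that probe set in order of rising restriction, with the control first, were 22.5, 27.3, 20.0, 24.3 and 21.4 at 1 month and 22.3, 19.0, 15.1, 21.8 and 26.5 at 1 week. It differed by 0.16 between the durations (adjusted p = 0.68) and by -0.05 between restricted and control arrays (adjusted p = 0.957).

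Of 8 marker genes of smooth muscle and pericytes 7 were tested. At 1 month 2 of them fell and none rose, against 5.55% lower and 4.45% higher of all probe sets, and their median difference was -0.18 log2. Their summed signal ranged from 1879.9 to 2204 on 1 month arrays and from 2093 to 2379 on 1 week arrays. Much of this sum came from Abcc9, also listed as a channel partner. Abcc9 alone had 1002 to 1343 on 1 month arrays and 1116 to 1355 on 1 week arrays. The part of these markers in the lower Kcnma1 signal was not tested. Kcnmb1, the accessory subunit of this channel in smooth muscle, was below the limit for testing.

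Of the genes that were higher at 1 month, Kcnj11, Kcnj12 and Scnm1 had no promoter in the table used and Cacna2d1 had 3. The 2 genes that fell at 1 month had 1 promoter each, and these are shown. They are the windows of 250 bases before and 50 after the start in RefSeq's table for GRCr8, on the plus strand at chr15:351675-351974 for Kcnma1 and on the minus strand at chr3:71846235-71846534 for Scn7a. Capitals mark GGGCGG or its reverse complement CCGCCC, the GC box, searched on both strands with overlaps counted.
Kcnma1: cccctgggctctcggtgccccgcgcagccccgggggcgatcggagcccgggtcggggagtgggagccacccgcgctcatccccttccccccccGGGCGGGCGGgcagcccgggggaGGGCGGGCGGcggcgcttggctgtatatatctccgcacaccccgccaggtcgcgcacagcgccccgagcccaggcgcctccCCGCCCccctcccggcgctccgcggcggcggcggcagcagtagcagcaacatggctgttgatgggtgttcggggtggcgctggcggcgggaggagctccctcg
Scn7a: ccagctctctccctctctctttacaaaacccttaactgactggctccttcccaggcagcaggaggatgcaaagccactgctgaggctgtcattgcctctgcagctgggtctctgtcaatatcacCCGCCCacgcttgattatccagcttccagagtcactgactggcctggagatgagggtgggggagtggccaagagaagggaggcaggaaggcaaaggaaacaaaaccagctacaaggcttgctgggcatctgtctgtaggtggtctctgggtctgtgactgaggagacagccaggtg
The Kcnma1 window held 5 GC boxes and the Scn7a window 1, and 33.1% of 33469 promoter windows held at least 1. A match is a run of letters and not a binding site.

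Kcnn3 encodes the small-conductance calcium-activated channel SK3, known from immature and denervated fibres. Signals of Kcnn3 in order of rising restriction, with the control first, were 41.2, 32.9, 27.2, 22.3 and 31.6 at 1 month and 38.8, 39.6, 31.8, 48.6 and 34.0 at 1 week. All 4 restricted arrays at 1 month were below their control, and those at 1 week lay on both sides of theirs. It differed by -0.33 ± 0.18 log2 between 1 month and 1 week (SE, adjusted p = 0.297) and by -0.29 ± 0.22 between restricted and control arrays (SE, adjusted p = 0.609). As deposited it passed as lower at 1 month (adjusted p = 0.0369). Of 8 markers of denervated and immature fibres 6 were tested. At 1 month 3 fell and none rose, against 5.55% lower and 4.45% higher of all probe sets, with a median of -0.43 log2. Their summed signal was 473 to 636 on 1 month arrays, against 608 to 798 on 1 week arrays. The part of these markers in the Kcnn3 signals was not tested.

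No voltage-gated potassium subunit passed in any comparison. Kcnc4 encodes Kv3.4, a fast channel that shortens the muscle action potential. Signals of Kcnc4 in order of rising restriction, with the control first, were 829, 851, 819, 711 and 728 at 1 month and 916, 852, 661, 782 and 698 at 1 week. The 20 and 30% CR arrays were below the control in both durations. Its slope was -0.09 ± 0.03 log2 per 10 percentage points (SE, adjusted p = 0.187). Kcnq5 encodes a slow Kv7 channel. Signals of Kcnq5 in order of rising restriction, with the control first, were 392, 438, 417, 315 and 365 at 1 month and 273, 333, 197, 383 and 362 at 1 week. The 1 week 10% CR array was the lowest of all. Kcnq5 was at 0.35 ± 0.15 log2 between 1 month and 1 week (SE, adjusted p = 0.174).

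The remaining members of that group were Kcna5, Kcnc1, Kcnh2 and Kcnh3, with 1 month minus 1 week differences of -0.04, 0.08, -0.02 and -0.01 log2. Kcnh2, the ERG channel that has been linked to muscle atrophy in mice, ranged from 18.8 to 43.4 at 1 month and from 14.1 to 46.2 at 1 week. Its slope of -0.20 had a 95% interval from -0.48 to 0.09. The accessory subunits Kcnab1 and Kcne4 had slopes of -0.10 (adjusted p = 0.429) and 0.04 (adjusted p = 0.907).

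Among the sodium channel genes, Scn7a, which encodes the sodium-sensing Nax channel known from Schwann cells and glia, was lower at 1 month. Its signal was 28.8, 46.1, 53.1, 40.5 and 47.5 at 1 month from control to 30% CR, against 55.3, 49.4, 82.2, 60.5 and 71.7 at 1 week. The 1 month array was the lower at every level, and the ranges overlapped between the 1 month 10% CR and the 1 week 5% CR arrays. Scn7a fell by 0.57 ± 0.17 log2 at 1 month (SE, adjusted p = 0.0451). It passed in 3 of 10 fits without an array, those without the 5% CR array of either duration or the 1 month 10% CR array, with adjusted p from 0.0318 to 0.105, and without both contradictory arrays adjusted p was 0.0841. In the restricted arrays against control it was at 0.46 ± 0.19 (SE, adjusted p = 0.287).

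Of 7 Schwann cell and nerve markers 3 were tested, Pmp22, Mbp and S100b, while Sox10 and Nefl were too dim. Of the 3, 1 fell at 1 month and none rose, against 5.55% lower and 4.45% higher of all probe sets. Their median was -0.29 log2, with 1 positive estimate of 0.18. Their summed signal was 501 to 725 on 1 month arrays and 729 to 888 on 1 week arrays, with no overlap. Sums of 6 fibroblast markers did not overlap either, with 8497 to 11561 on 1 month arrays and 11718 to 13036 on 1 week arrays. Among single probe sets 7.82% of all had no overlap between the durations. The part of either list in the Scn7a difference was not tested. Scn3a and Scn3b, a pore and an accessory subunit of sodium channels known from neurons, were named after their values were seen. Scn3a ranged from 30.0 to 38.4 at 1 month and from 36.0 to 54.2 at 1 week, and Scn3b from 30.8 to 33.2 and from 34.7 to 57.6. Their differences of -0.47 each did not pass (adjusted p = 0.0692 for Scn3a and 0.0787 for Scn3b) on the rescaled signals. They passed as deposited (adjusted p = 0.00482 for Scn3a and 0.00583 for Scn3b), and on the rescaled signals Scn3a passed without the 1 week control array (adjusted p = 0.0493) and Scn3b without the 1 week 10% CR array (adjusted p = 0.0457).

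Scn4b, the beta4 accessory subunit, varied by 1.29-fold between its lowest and highest array. Signals of Scn4b in order of rising restriction, with the control first, were 2289.7, 2259, 2269, 2129 and 2310.1 at 1 month and 1787, 2052, 2022, 2053 and 2182 at 1 week. The 1 week control was the lowest array. Its difference of 0.16 ± 0.06 log2 between 1 month and 1 week did not pass (SE, adjusted p = 0.0921), although under quantile normalization it did (0.19, adjusted p = 0.0364). Scn4a itself, the pore of the muscle sodium channel, was read by a dim probe set. Signals of Scn4a in order of rising restriction, with the control first, were 30.1, 37.4, 24.5, 42.5 and 32.3 at 1 month and 30.8, 25.6, 35.7, 25.9 and 14.8 at 1 week. The 1 week 30% CR array was the lowest. The slope of Scn4a was -0.13 ± 0.11 (SE, adjusted p = 0.638), with a 95% interval from -0.35 to 0.10.

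**Figure D3:**
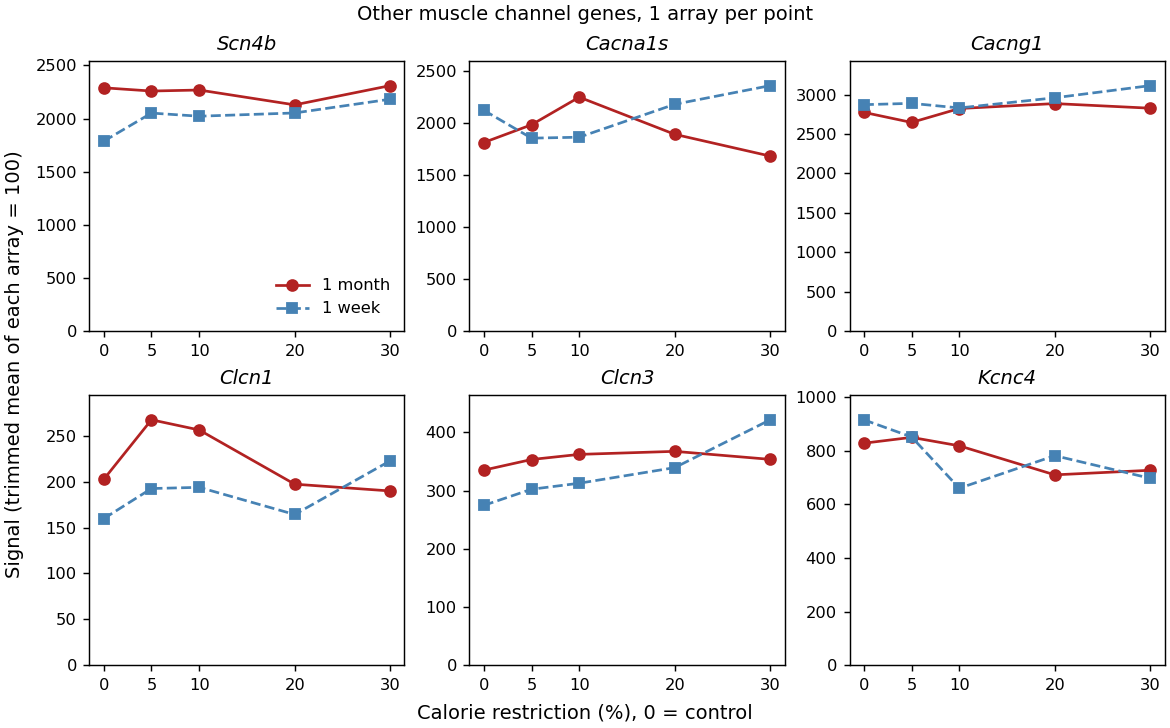
Signal (trimmed mean of each array set to 100) against the level of restriction for 6 further channel genes of the muscle fibre, 1 pooled array per point, 1 month arrays as circles and 1 week arrays as squares. Clcn3 climbs with the level at 1 week and varies less at 1 month, while the highest Cacng1 signal is 1.18 times the lowest.

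The calcium channel of the transverse tubule was read through its pore and its alpha2delta, beta and gamma subunits. For the pore Cacna1s the signal was 1814, 1985, 2251, 1893 and 1684 at 1 month from control to 30% CR, against 2125, 1857, 1866, 2183 and 2362 at 1 week. The ranges of both durations overlapped. Its slope was 0.01 ± 0.04 log2 per 10 percentage points (SE, adjusted p = 0.915), with a 95% interval from -0.07 to 0.10. Cacng1, the gamma1 subunit, had the smallest spread of the family, with 2774, 2646, 2823, 2885 and 2827 at 1 month and 2871, 2888, 2829.8, 2959 and 3113 at 1 week, and a slope of 0.03 ± 0.02 (SE, adjusted p = 0.58).

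Cacna2d1, the alpha2delta1 subunit, was the one part of this complex that passed on the rescaled signals. As deposited, where 32.8% of all probe sets were lower, Cacna1s (adjusted p = 0.0117), Cacnb1 (0.0367), Cacng1 (0.000958) and Cacng6 (0.00825) passed as lower between the durations and Cacna2d1 did not. Signals of Cacna2d1 in order of rising restriction, with the control first, were 823, 741, 756, 686 and 633 at 1 month and 688, 615, 638, 647 and 589 at 1 week. The 1 month array was above the 1 week array at every level, and every restricted array was below its control. It was higher at 1 month by 0.19 ± 0.06 log2 (SE, adjusted p = 0.0462). Of 10 fits without an array it passed in 1, that without the 1 week 20% CR array, with adjusted p from 0.0489 to 0.116. It did not pass with the 1 week control and 5% CR arrays exchanged (0.19, adjusted p = 0.0605) or without both (0.15, adjusted p = 0.272). As deposited the difference was -0.01. Its slope on the level, -0.08 ± 0.03 (SE, adjusted p = 0.146), did not pass.

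Cacnb1, the beta1 subunit that ties the pore to the junction, was read differently by its probe sets, as was seen only after their values were known. The brighter one had signals of 251, 246, 254, 278 and 278 at 1 month from control to 30% CR and 243, 251, 251, 248 and 293 at 1 week. The dimmer one had 88.7, 76.2, 72.6, 77.1 and 55.4 and 109.9, 82.3, 67.8, 68.6 and 63.7, with every restricted array below its control. Their slopes were 0.07 (adjusted p = 0.29) and -0.20 (adjusted p = 0.0775), neither of which passed. Cacng6 and Cacng2 were placed among the calcium channel accessory subunits by their symbols alone, and whether they belong to this complex was not tested. Cacng6 ranged from 138 to 168 at 1 month and from 155 to 185 at 1 week, and Cacng2 from 47.8 to 63.2 and from 42.6 to 66.0.

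Cacna1h encodes a low-voltage-activated T-type channel. Signals of Cacna1h in order of rising restriction, with the control first, were 24.1, 34.0, 15.5, 15.7 and 47.9 at 1 month and 41.7, 36.3, 37.2, 24.0 and 13.9 at 1 week. The 30% CR array was the highest at 1 month and the lowest at 1 week. The difference of slopes, 1 month minus 1 week, was 0.71 ± 0.26 log2 per 10 percentage points (SE, adjusted p = 0.781). Over both durations the slope was -0.17 (adjusted p = 0.676), and without the 1 month 30% CR array it was -0.50 (adjusted p = 0.0499). Slopes passed as different between the durations for 0 channel genes by limma, with 2 of 34 at an unadjusted p under 0.05 (5.88%, against 6.06% of all), and 0% of all probe sets passed after adjustment. Cacna1a, a channel pore of nerve endings that was named after its values were seen, had signals of 27.8, 16.9, 16.3, 15.5 and 26.2 at 1 month from control to 30% CR and 7.23, 25.8, 29.0, 28.4 and 23.4 at 1 week. The 1 week control was the lowest array. Restricted arrays differed from controls by 0.64 ± 0.41 (SE, adjusted p = 0.528), and by 1.88 (adjusted p = 0.0397) without the 1 month control.

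**Figure D4:**
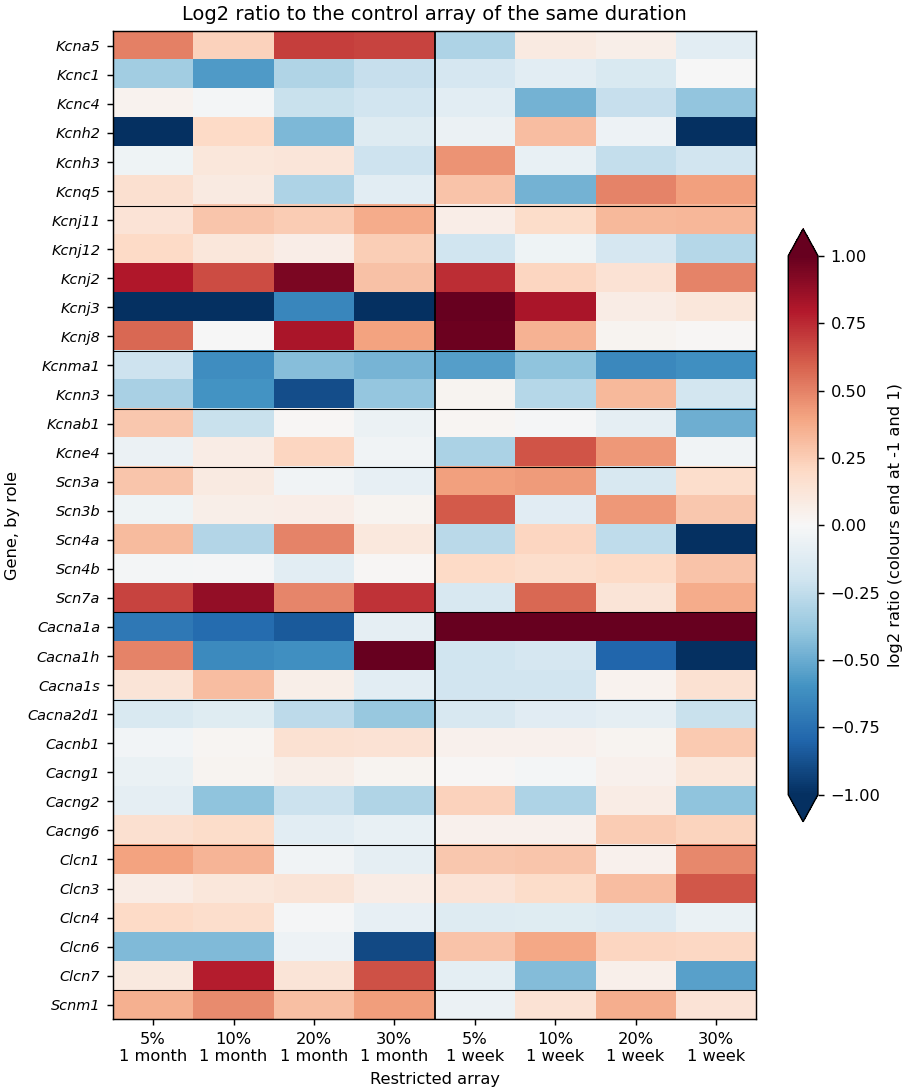
Log2 ratios of the 8 restricted arrays, each to the control of like duration, for 34 channel-family genes grouped by role, red above and blue below the control, with colours ending at -1 and 1. Kcnj11, Kcnj2 and Clcn3 are above and Kcnma1, Cacna2d1 and Kcnc1 below control in all 8 columns. Cacna1a, Kcnj3 and Clcn6 are below control at 1 month and above it at 1 week. All columns of a duration share 1 control array.

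Of the chloride channels and exchangers none passed. Clcn1 carries most of the resting chloride conductance of muscle. Signals of Clcn1 in order of rising restriction, with the control first, were 203, 268, 257, 197 and 190.1 at 1 month and 159.9, 193, 194, 164 and 223 at 1 week. Arrays at 5 and 10% CR were the highest at 1 month, and the 30% CR array was the highest at 1 week. Its 1 month minus 1 week difference was 0.25 ± 0.12 log2 (SE, adjusted p = 0.206) and its slope -0.01 ± 0.05 (SE, adjusted p = 0.977). Clcn3 encodes an endosomal chloride-proton exchanger. Signals of Clcn3 in order of rising restriction, with the control first, were 335, 353, 362, 367 and 354 at 1 month and 275, 302, 313, 339 and 422 at 1 week. Every restricted array was above its control. Its slope was 0.11 ± 0.03 (SE, adjusted p = 0.153), and of 3 dimmer Clcn3 probe sets 2 had positive slopes, 0.09 and 0.06, and 1 was at -0.02. The slope at 1 month minus that at 1 week was -0.17 ± 0.05, the smallest p of that comparison among channel genes (SE, adjusted p = 0.78).

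Clcn4, a near relative of Clcn3, ranged from 297 to 360.4 at 1 month and from 292 to 321 at 1 week. Clcn7 forms the lysosomal exchanger together with Ostm1. Clcn7 ranged from 17.7 to 30.4 at 1 month and from 21.4 to 32.2 at 1 week, with a difference of -0.28 ± 0.22 log2 (SE, adjusted p = 0.467), while Ostm1 was higher at 1 month by 0.34 (adjusted p = 0.0109). Signals of Ostm1 were 305, 379, 349, 319 and 318 at 1 month from control to 30% CR and 261, 246, 248, 271 and 292 at 1 week. They did not overlap, as was so for 7.82% of all probe sets. Clcn6, named after its values were seen, ranged from 23.2 to 43.3 and from 28.4 to 37.2.

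Scnm1, which is no channel, had the smallest adjusted p of the 34 genes between the durations. Signals of Scnm1 in order of rising restriction, with the control first, were 176, 225, 245, 217 and 235 at 1 month and 144, 138, 159, 185 and 158 at 1 week. The 1 month array was higher at every level, and the 1 month control was within the range of the 1 week arrays. The difference was 0.48 ± 0.09 log2, or 1.40-fold (SE, adjusted p = 0.00404), and it passed in all 10 fits without an array. Without both contradictory arrays it was 0.43 (adjusted p = 0.0532).

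Of 32 genes listed as partners of these channels 20 were tested, 10 were too dim and 2 had no probe set of a single gene. For the slope 1 of 20 rose (5%), against 2% of all probe sets that changed either way, and none fell. This was Sgk1, a kinase that raises the surface level of several channels by acting on Nedd4l. Its signal was 709, 860.0, 783, 836 and 916 at 1 month from control to 30% CR, against 702, 703, 766, 866 and 1226 at 1 week. The 1 week 30% CR array was the highest of all, and every restricted array was above its control. The slope of Sgk1 was 0.18 ± 0.04 (SE, adjusted p = 0.0258). In the restricted arrays alone the slope was 0.18 and did not pass (adjusted p = 0.181). Its slope at 1 month minus that at 1 week was -0.17 (limma, unadjusted p = 0.0143, adjusted p = 0.78). None of the 20 passed limma's test between restricted and control arrays, where 1 was at an unadjusted p under 0.05, Jph2, a junctophilin, at -0.31 (adjusted p = 0.0509).

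Between the durations 2 of the 20 partners were higher at 1 month, against 4.45% of all probe sets, and 2 were lower, against 5.55%. The higher ones were Ostm1 and the ubiquitin ligase Nedd4l (0.29, adjusted p = 0.0486). Cav3, the caveolin of muscle, fell by 0.25 (adjusted p = 0.028), and Jph1, a junctophilin that holds the tubule to the reticulum, fell by 0.21 (adjusted p = 0.033). Ryr1, Stac3, Trdn and Casq1, all of the release machinery beside Cacna1s, did not pass in any of these comparisons. For the partner genes, Sgk1 included, no fits without an array, with the contradictory arrays exchanged or on signals as deposited are reported.

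Over the 8 ratios to control the median of the 34 genes lay between -0.07 and 0.09 log2. Between 0 and 4 genes per array differed by at least 2-fold, or 0 to 11.8% of the 34, against 2.28 to 3.45% of all probe sets. The highest share, 11.8%, was on the 1 week 30% CR array, where it was 3.45% of all probe sets. Markers of fast and of slow fibres were present on every array. Of 11 fast fibre markers 10 were tested and had a summed signal of 69698 to 105860 on 1 month arrays and 90368 to 97818 on 1 week arrays. All 11 slow fibre markers were tested and had 9476 to 13717 on 1 month arrays, against 4212 to 18267 on 1 week arrays, with the lowest value on the 1 week control. Slow fibre slopes had a median of 0.29 log2 per 10 percentage points. Of the 11, 8 were at an unadjusted p under 0.05 and none passed limma's adjusted threshold. Their slopes at 1 month minus those at 1 week had a median of -0.50. Of these differences 10 of 11 were negative, 6 were at an unadjusted p under 0.05 and none passed. For Kcnj11 that difference was -0.01. The part of slow fibre markers in the Kcnj11 slope was not tested. At 1 month against 1 week the medians of further lists were -0.16 for fast fibre, 0.22 for slow fibre, -0.28 for endothelial, 0.10 for macrophage and -0.36 for fibroblast markers. Of the slow fibre markers 6 were positive and 5 negative, yet 2 fell and none rose by limma. None of the fast fibre markers passed, 1 macrophage marker rose and 1 fell. Of 6 endothelial markers 2 fell, and of 6 fibroblast markers 3 fell. Of all probe sets 4.45% were higher and 5.55% lower.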

How the data were processed

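For each group the authors pooled RNA of 5 rats, hybridized it to 1 Affymetrix GeneChip array of the rat genome and deposited MAS5 signal intensities, on a linear scale and scaled array by array. No detection call was used here, and arrays carry no read depth, so their number limits the precision. From the deposited intensity values, signals under 0.1 were set to 0.1 after each array had been rescaled to a trimmed mean of 100 between its 2nd and 98th percentiles, and log2 was taken. Of 31099 probe sets 57 were controls. The other 31042 report 1 gene (20826), several (436) or none (9780) by the platform annotation, and all 34 members matched RefSeq's GRCr8 table. Tests covered the 15521 probe sets with a mean log2 signal at or above the 50th percentile (17.8 as deposited), and a gene was read from its brightest probe set of a single gene. Levels of different genes were not compared.

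Models were linear and fitted in R 4.3.3 by limma 3.58.1 (lmFit, eBayes with trend, two-sided) over all 10 arrays, with Benjamini-Hochberg adjustment over the 15521 probe sets at 0.05. The slope on the level, restricted against control and the difference of slopes had duration as a factor, and 1 month against 1 week had the level as a covariate. The code was tested on simulated data. Genes are named if they passed (with none passing, the 2 of lowest p), if they were the 2 brightest of a role, or if they are known to set fibre excitability. Members, lists and tests were chosen with earlier results of these data known. Alternatives were normalization, low values, filter, variance model, probe set, the 2 contradictory arrays, the scale of the level and leaving out each array. Leaving out both contradictory arrays and reading dimmer probe sets were chosen after seeing the data.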

Additional observations from a re-analysis of the deposited data

Results flagged for a closer look

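For 4 of the 34 channel genes all 4 ratios to control at 1 month had the opposite sign of all 4 at 1 week, as had 1358 (8.75%) of all probe sets tested. The 4 ratios of a duration share their control array, so 1 low or high control moves all of them. Cacna1a had a median log2 ratio of -0.74 at 1 month and 1.91 at 1 week, a difference of -2.65. Its 1 week control had the lowest of its 10 signals, 7.23. Kcnj3 had a median of -1.09 at 1 month and 0.47 at 1 week, a difference of -1.55. Clcn6 had -0.44 at 1 month and 0.25 at 1 week, a difference of -0.69. Kcnj12 had 0.16 at 1 month and -0.19 at 1 week, a difference of 0.35. The difference of slopes between the durations did not pass limma's test for any of these genes, with adjusted p of 0.897 for Cacna1a, 0.996 for Kcnj3, 0.888 for Clcn6 and 0.855 for Kcnj12, and the opposite signs themselves were not tested.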

How the results depend on the processing

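Each group had 1 array, so no replicate numbers pair arrays, and pairing the 1 month and 1 week arrays by level is the fit with the level as a factor. The count of channel genes whose slope passed as higher was 0 without the filter on low values, with eBayes without trend, when all probe sets of a gene were averaged, with the 1 week control and 5% CR arrays exchanged or both left out, and in each duration alone. It was 0 to 1 over the fits without an array, as was the count for lower slopes, there for Cacna1h (-0.50, adjusted p = 0.0499) without the 1 month 30% CR array. The slope of Kcnj11 stayed positive in all of its alternatives, 0.08 to 0.12, with adjusted p from 0.0137 to 0.486. Fits without the 1 week control, 5, 20 or 30% CR array or without the 1 month control, 20 or 30% CR array ended its call.

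Between restricted and control arrays 1 gene, Kcnma1, passed as lower under quantile normalization, median centring, an offset of 32 and a 70th percentile filter, and the counts were 0 to 1 lower and 0 to 1 higher over the fits without an array. Kcnma1 passed without the 1 month 5% CR array (adjusted p = 0.0339).

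At 1 month against 1 week the count of higher genes was 2 without the filter, with eBayes without trend and with the level as a factor (where Kcnj11, adjusted p = 0.0503, and Cacna2d1, 0.0705, missed the threshold), 1 on signals as deposited and 1 without both contradictory arrays. The count of lower genes was 1 under quantile normalization, the 70th percentile filter, eBayes without trend and averaging of a gene's probe sets, 10 on signals as deposited and 0 without both arrays. Over the fits without an array the counts were 2 to 4 higher and 1 to 2 lower. As deposited, Kcnj11 (-0.011) and Cacna2d1 (-0.013) changed sign, which follows from the lower scale of the 1 month arrays. Without the filter Kcns3 passed as lower (-1.04, adjusted p = 0.0339). No count changed for the difference of slopes or the restricted arrays alone.

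With 1 pooled array per group, differences between single levels have no error, and channel genes with signals under 100 varied most between arrays.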
